A study of Mus musculus with 8 samples.

Results

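The Tcl1 family of mouse oocytes consists of 6 genes, Tcl1 and its tandem paralogs Tcl1b1 to Tcl1b5, taken by name from a table of 21959 genes. RNA was sequenced from oocytes of Rbpms2 knock out mice (4 libraries) and of wild-type mice (4 libraries), all from ovaries at postnatal day 1, the age at which oocytes become enclosed in primordial follicles. For each library 5 to 10 putative primordial oocytes were picked by hand and their mRNA amplified over 18 cycles. The labels give no strain, no deleted exon and no link between tubes and animals. The spread behind each p-value is therefore that between tubes and may be technical. Values are FPKM, that is reads scaled by the length of the gene and the depth of the library, so levels of different genes can be set side by side.

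TCL1 is a small protein of beta-barrel shape that binds the pleckstrin homology domain of AKT kinases and promotes their activation. It was found in humans as an oncogene of T-cell leukaemia. In the mouse, Tcl1 is made in lymphoid progenitors, embryonic stem cells, oocytes and cleavage-stage embryos, and embryos from mothers without it develop poorly. The Tcl1b genes, multiplied in the mouse beside Tcl1, are known mainly from oocytes and early embryos, and what each of them does is not established. AKT signalling in oocytes acts on FOXO3, which holds primordial follicles dormant.

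All 6 genes lie in 76.8 kb of chromosome 12 (GRCm38, 105146014 to 105222793). Along the plus strand come Tcl1b2 (ENSMUSG00000060863, 105146014 to 105155225), Tcl1b1 (ENSMUSG00000066359, 105159690 to 105166625), Tcl1b5 (ENSMUSG00000000701, 105176344 to 105181145), Tcl1b3 (ENSMUSG00000068940, 105191043 to 105195612) and Tcl1b4 (ENSMUSG00000079007, 105201957 to 105206993). Tcl1 (ENSMUSG00000041359, 105216750 to 105222793) closes the cluster on the minus strand. None of the 6 overlaps another gene of the GENCODE M21 annotation.

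The Tcl1b promoters are near copies of each other, and a stretch of 70 bases is shown for each member because all 6 windows hold the same 6 letters there. Aligned in pairs, the RefSeq windows of the 5 Tcl1b genes (GRCm38.p6, 250 bases before to 50 after the RefSeq start) were 90.9% to 98.6% identical over their aligned bases. These came to 206 to 287 bases in a pair, and gaps and unaligned ends were left out. The stretches below run 5′ to 3′ on the strand of the gene, and capitals mark CACCTG or its reverse complement CAGGTG, a form of the E-box CANNTG that basic helix-loop-helix factors bind. They cover 105222738 to 105222807 for Tcl1, 105159604 to 105159673 for Tcl1b1, 105146933 to 105147002 for Tcl1b2, 105190943 to 105191012 for Tcl1b3, 105202322 to 105202391 for Tcl1b4 and 105176258 to 105176327 for Tcl1b5.
Tcl1: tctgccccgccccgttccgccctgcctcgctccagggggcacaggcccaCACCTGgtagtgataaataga
Tcl1b1: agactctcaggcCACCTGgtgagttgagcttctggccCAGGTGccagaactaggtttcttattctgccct
Tcl1b2: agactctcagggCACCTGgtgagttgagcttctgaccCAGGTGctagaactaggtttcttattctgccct
Tcl1b3: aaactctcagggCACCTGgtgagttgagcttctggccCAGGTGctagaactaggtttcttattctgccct
Tcl1b4: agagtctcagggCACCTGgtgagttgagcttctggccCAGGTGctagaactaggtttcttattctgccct
Tcl1b5: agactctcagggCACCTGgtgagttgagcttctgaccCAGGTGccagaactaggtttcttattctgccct

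The E-box of Tcl1 begins 21 bases before its RefSeq start. Each Tcl1b gene has a pair of these E-boxes with the same spacing, beginning 88 and 63 bases before the start in Tcl1b1 and 61 and 36 bases before it in Tcl1b4. Among 32851 promoter windows of this length, 20.2% hold CACCTG on either strand and 2.88% hold it at least 2 times, and 72.3% hold CANNTG, which includes CACCTG. The search for CACCTG was added after the sequences had been seen. None of the 6 windows holds TAATTG, ATGCAAAT or TATAAA on either strand, which 8%, 1.74% and 13.6% of all windows hold. RefSeq starts lie inside the GENCODE gene models by 1005 bases in Tcl1b2, 438 in Tcl1b4, 56 in Tcl1, 14 in Tcl1b1 and 2 in Tcl1b3, and coincide in Tcl1b5. The E-boxes shown for Tcl1, Tcl1b2 and Tcl1b4 thus fall within the GENCODE genes.

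Near-identical copies raise the question of which gene a read belongs to. The longest annotated transcripts of the Tcl1b genes were 85.5% to 93.3% identical in pairs, counted over 996 to 1046 aligned bases without gaps. Tcl1 shares no window of 50 bases with a transcript of any other gene, so its values are not touched by the paralogs in this way. Of the 50-base windows, 34.1% in Tcl1b3, 29% in Tcl1b2, 20.8% in Tcl1b5, 13% in Tcl1b1 and 2.82% in Tcl1b4 recur exactly in another Tcl1b gene. With windows of 150 bases only Tcl1b2 (3.54%) and Tcl1b3 (3.68%) share any. No source used here gives the read length or the handling of reads with several matches, so levels of single Tcl1b genes are uncertain against each other.

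The reads assigned to genes, inferred from the smallest steps between values, came to 9554090 to 14526326 in knockout libraries and 8310774 to 11926922 in wild-type libraries. Rbpms2 had 38.4, 58.3, 31.0 and 42.5 FPKM in knockout replicates 1 to 4, against 158, 167, 136 and 213 FPKM in wild-type replicates 1 to 4 (limma adjusted p = 7.26e-05). Of 10 germ cell markers 3 were higher in knockout, Ddx4, Dazl and Sycp3, and 7 lower, Figla, Nobox, Lhx8, Kit, Zp3, Gdf9 and Dppa3. Ddx4 and Dazl, both germ cell genes, were present in every library. They had 108 to 332 and 379 to 656 FPKM in knockout and 54.0 to 84.2 and 185 to 315 FPKM in wild type. Dppa3 had 25.3 to 405 FPKM in knockout and 2374 to 3788 FPKM in wild type. For Kit the ranges were 15.1 to 70.4 and 171 to 240.4 FPKM. Of all 11235 genes tested, 43.4% were called at an adjusted p under 0.05, 25.6% lower in knockout and 17.7% higher. The genotypes did not overlap in 39.9% of them, and in 24% every knockout library was below every wild-type library. Both shares are high, so a call by itself says little about a gene.

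Tcl1 was among the most abundant transcripts of wild-type oocytes and was lower in every knockout library. It had 2.18, 23.1, 11.5 and 3.57 FPKM in knockout replicates 1 to 4, against 397, 345, 279.8 and 492 FPKM in wild-type replicates 1 to 4. The genotypes stood far apart, and the knockout libraries differed among themselves by more than 10-fold, with replicate 2 highest and replicate 1 lowest. Mean levels were 10.1 ± 9.62 FPKM in knockout and 378 ± 89.4 FPKM in wild type (SD, n = 4 each), a ratio of means of 37.5. Ranked among all genes, Tcl1 stood at place 8930, 2445, 4387 and 7050 in knockout replicates 1 to 4, and at place 100, 123, 148 and 76 in wild-type replicates 1 to 4. The log2 fold change on the log2(FPKM + 1) scale was -5.51 ± 0.54 (SE), with an adjusted p of 2.98e-05 by limma. An exact permutation test, two-sided, gave p = 0.0286, which is the lowest value possible for 4 against 4. In RNA of whole cells, fewer cells that express a gene and less of its RNA per cell cannot be told apart.

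The 5 Tcl1b genes had no read in any knockout library. Together they held 0 reads in knockout, out of 47655232 reads in those 4 libraries, and 4076 reads in wild type, out of 38587860. Tcl1b1 had 0 FPKM in each knockout library, against 46.5, 32.5, 20.5 and 39.7 FPKM in wild-type replicates 1 to 4, and was at least 575-fold lower in knockout. These bounds set the mean of wild type against a floor of 3 reads over the knockout group and cover counting error only, since amplified reads without molecular identifiers are not independent molecules.

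Tcl1b2 showed the same pattern as Tcl1b1 at a like level, with 0 FPKM in each knockout library, against 35.8, 19.5, 24.2 and 40.7 FPKM in wild-type replicates 1 to 4, at least 600-fold lower. Tcl1b3 was at 0 FPKM in each knockout library, against 23.4, 4.62, 13.4 and 21.4 FPKM in wild-type replicates 1 to 4, at least 260-fold lower. For Tcl1b4 the values were 0 FPKM in each knockout library, against 7.33, 3.90, 3.09 and 18.8 FPKM in wild-type replicates 1 to 4, at least 196-fold lower. In these 4 genes the lowest wild-type library was well above the floor of 0.0421 to 0.0605 FPKM. Their adjusted p values (limma) were 9.71e-07 for Tcl1b1, 1.14e-06 for Tcl1b2, 6.96e-05 for Tcl1b3 and 0.000513 for Tcl1b4.

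Tcl1b5 was scarce in wild type as well. It had 0 FPKM in each knockout library, against 3.25, 0.859, 0 and 2.05 FPKM in wild-type replicates 1 to 4, or 41, 9, 0 and 18 reads. The genotypes thus touched at 0, and the exact two-sided permutation p was 0.143. It did not reach the filter, which asks for 1 FPKM in 4 libraries, and was not tested with the other genes, and without that filter it missed the threshold (log2 fold change -1.15, limma adjusted p = 0.0682). Its mean in wild type, 1.54 ± 1.42 FPKM (SD, n = 4), was at least 25-fold above the knockout floor, a statement about counts and not a test.

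Of the 6 members 5 were tested and all 5 were called lower. Tcl1b1 to Tcl1b4 passed the filter through their wild-type libraries alone and could hardly have been tested without differing, so this count adds nothing to the values themselves. Among all tested genes 0.774% had 0 reads in every knockout library. Fitted fold changes of the Tcl1b genes follow their wild-type level and the pseudocount, -5.10, -4.90, -3.86 and -2.92 for Tcl1b1 to Tcl1b4, and do not rank how strongly they fell.

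**Figure D1:**
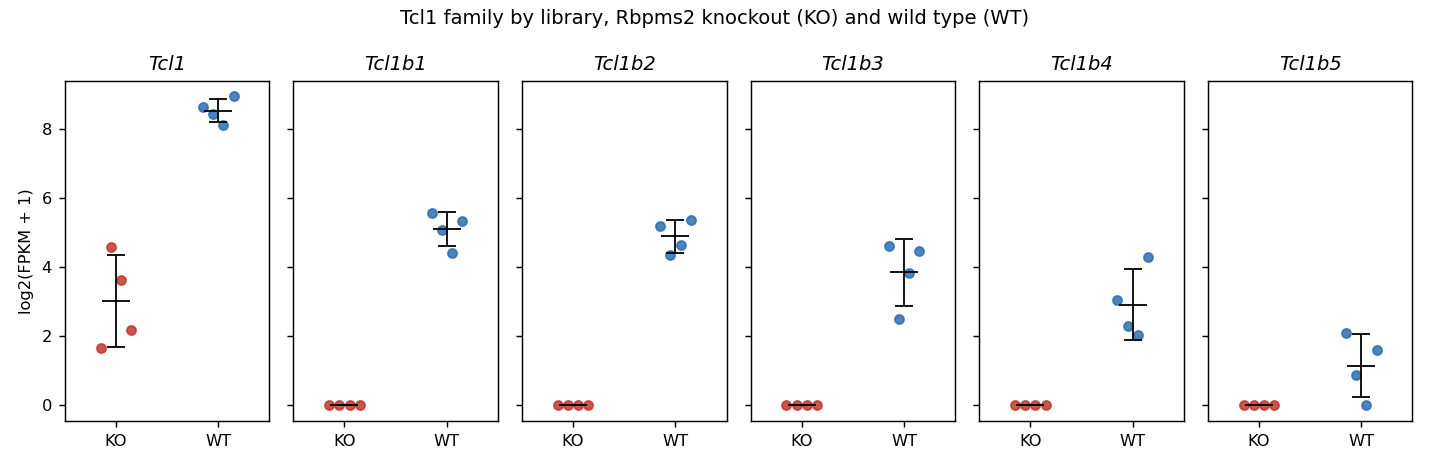
Levels of the 6 family members as log2(FPKM + 1), a point for each library, with Rbpms2 knockout (KO) left of wild type (WT) in each panel and lines for the mean and SD of 4 libraries. Tcl1 keeps 2.18 to 23.1 FPKM in knockout, while every Tcl1b gene lies at 0 in all 4 knockout libraries, and Tcl1b5 touches 0 in wild type too.

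The order of levels was alike in the 4 wild-type libraries, apart from 1 pair of genes. Tcl1 was highest in 4 of 4 libraries and made up 77.3%, 84.9%, 82.1% and 80.0% of the summed FPKM of the family in replicates 1 to 4. Tcl1b1 and Tcl1b2 came next and changed places between libraries, with means of 34.8 ± 11.1 and 30.1 ± 9.86 FPKM (SD, n = 4 each) that did not differ beyond their spread. Below them Tcl1b3, at 15.7 ± 8.56 FPKM, was above Tcl1b4 in every library, at 8.28 ± 7.25 FPKM (SD, n = 4 each), though their ranges overlapped. Tcl1b5 was last in every library.

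The Tcl1b genes as a group summed to 116, 61.4, 61.2 and 123 FPKM in wild-type replicates 1 to 4. Replicates 1 and 4 thus had about the same sum and stood above replicates 2 and 3. Of that sum Tcl1b1 made up 32.4% to 52.9% and Tcl1b2 30.8% to 39.6%. Tcl1b3 made up 7.52% in replicate 2 and 17.4% to 21.9% in the other libraries, and Tcl1b4 15.3% in replicate 4 and 5.05% to 6.35% elsewhere.

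Tcl1 and the Tcl1b genes did not keep their proportion in knockout. In wild type there were 0.151 Tcl1b reads for each Tcl1 read over the group, with 0.181, 0.110, 0.136 and 0.160 in replicates 1 to 4. Knockout libraries held 983 Tcl1 reads, which at that proportion would go with 149 Tcl1b reads, and there were 0. Knockout replicate 2 alone had 621 Tcl1 reads. A count of 0 allows up to 3 reads, or 0.305% of the Tcl1 reads in knockout, against 15.1% in wild type. This bound pools the knockout libraries and covers counting error only, since amplified reads are not independent molecules. Knockout replicates 1 and 4 had 47 and 63 Tcl1 reads, so they say little by themselves.

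**Figure D2:**
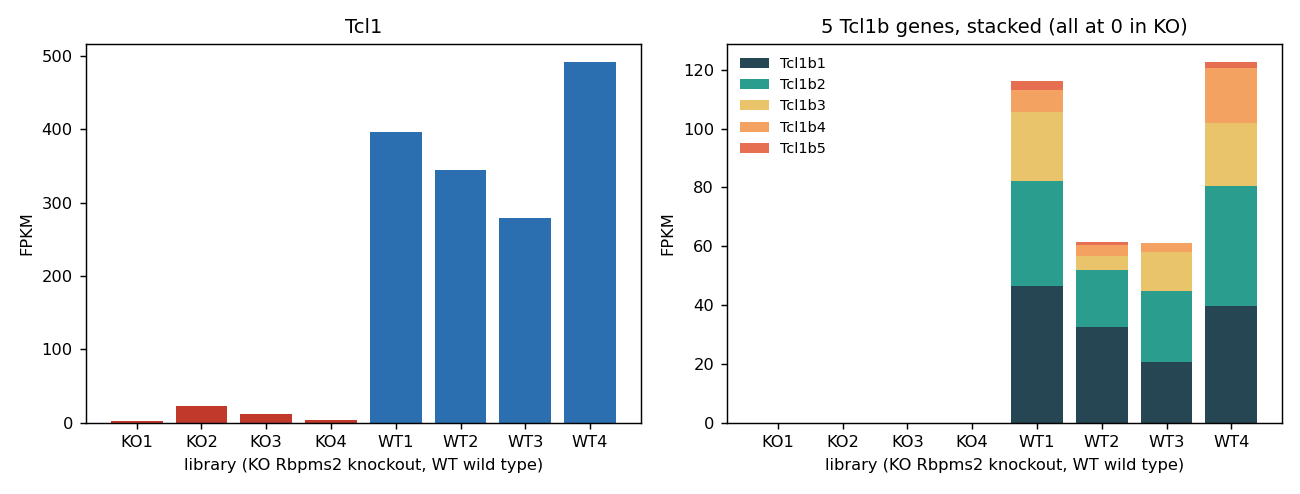
FPKM of Tcl1 (left) and stacked FPKM of the 5 Tcl1b genes (right) in each library, knockout libraries first. Tcl1 stays visible in knockout replicates 2 and 3 at 23.1 and 11.5 FPKM, while no Tcl1b segment appears in any knockout library.

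The Tcl1 that remained in knockout differed between tubes. As a share of the wild-type mean it was 0.576%, 6.12%, 3.03% and 0.944% in knockout replicates 1 to 4. Replicates 2 and 3 were also the knockout libraries richest in stromal markers, whose 10 genes summed to 10.1, 303, 339 and 11.8 FPKM in knockout replicates 1 to 4 and to 3.82, 36.4, 86.3 and 24.9 FPKM in wild-type replicates 1 to 4. None of the 10 was called or at 0 throughout. Granulosa markers summed to 9.62, 89.2, 373 and 11.2 FPKM, immune markers to 17.4, 55, 449 and 30.4 FPKM and erythroid markers to 102, 2819, 3212 and 99.6 FPKM in knockout replicates 1 to 4, so replicates 2 and 3 were the richest knockout libraries in these as well. In wild type they summed to 2.1 to 46.2, 7.05 to 24.1 and 11.9 to 5368 FPKM. The granulosa marker Krt18 and the immune markers Mrc1 and Lyz2 were called higher in knockout, and no erythroid or endothelial marker was called. Mrc1 had 12, 9.78, 4.35 and 16.4 FPKM in knockout replicates 1 to 4 and at most 0.13 FPKM in wild type. Mrc1 and Lyz2 passed the filter through their knockout libraries alone, so their calls add nothing to the values. Endothelial markers summed to 336 FPKM in knockout replicate 1, the library with the least Tcl1, and to at most 6.89 FPKM in the other knockout libraries and 2.66 FPKM in wild type. The part of any of these cells in the remaining Tcl1 was not tested. Without knockout replicates 2 and 3 and wild-type replicate 3, the log2 fold change of Tcl1 was -6.74 (limma adjusted p = 5.67e-06). These were the 2 knockout libraries with the most Tcl1 and the wild-type library with the least, so a larger fall than with all libraries follows from the choice.

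Lymphoid cells also make Tcl1, so their markers were read as well. The 12 lymphoid markers, among them Cd3e, Lck and Cd79a, summed to 8.63, 2.03, 3.68 and 4.36 FPKM in knockout replicates 1 to 4 and to 4.31, 3.25, 3.45 and 6.13 FPKM in wild-type replicates 1 to 4. Cd3g and Rag1 were at 0 in all 8 libraries. Cd3e had 5.95, 0.758, 0.720 and 2.61 FPKM in knockout replicates 1 to 4 and 0 in wild type, and Ms4a1 0 in knockout and 1.15 to 2.52 FPKM in wild type. Of the 12 only Ms4a1 was tested, and the part of lymphoid cells in the remaining Tcl1 was not tested.

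Oocyte transcription factors also differed between knockout tubes. Sohlh1, a helix-loop-helix factor of early oocytes, kept 1.86%, 41.6%, 8.44% and 9.59% of its wild-type mean in knockout replicates 1 to 4. Nobox, a homeobox factor of primordial oocytes, kept 1.32%, 21.3%, 3.31% and 12.5%. Figla, the E-box factor that activates zona pellucida genes, kept 13.7%, 34.2%, 13.6% and 31.5%. Lhx8, a LIM homeobox factor, kept 10.9%, 31.8%, 8.72% and 41%. Replicate 2 was the highest of the 4 for Tcl1, Sohlh1, Nobox and Figla, but replicate 4 for Lhx8, replicate 3 for Foxo3 at 14.3 FPKM and replicate 1 for Gtf2a1l at 8.33 FPKM. No order of the tubes was thus common to these factors, and Sohlh1, Nobox, Lhx8 and Gtf2a1l were picked after their values were seen.

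The genes most like Tcl1 over all 8 libraries, by Pearson's r of log2(FPKM + 1) among 10696 named genes tested, were Mtus1 (0.994), Psenen (0.993), Cad (0.993), Col6a6 (0.993) and Hip1r (0.992). Mtus1 encodes a microtubule-associated protein, Psenen a subunit of gamma-secretase, Cad the enzyme that starts pyrimidine synthesis, Col6a6 a collagen chain and Hip1r an endocytic adaptor. The 8 points fall into the 2 genotypes, 440 genes have an r above 0.95, and all genes share the same libraries and depths, so the values are a description. With genotype means removed, the most like were Fanca (0.986), Tuba1c (0.981), Cad (0.976), Abr (0.975) and Rtkn2 (0.975). Cad was in both lists, with 2.3 ± 1.12 FPKM in knockout and 26.7 ± 0.928 FPKM in wild type (SD, n = 4 each). The call of Fanca ended after GC correction (limma adjusted p = 0.157) and after quantile normalization (adjusted p = 0.0620). Tcl1b1 to Tcl1b4, constant at 0 in knockout, had an r of 0.118 to 0.237 with Tcl1 in the same measure.

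Genes beside the family fell on the side of Tcl1b2 and were not called on the side of Tcl1. All 4 genes tested within 1 Mb before the cluster were lower in knockout, and 0 of the 4 tested within 1 Mb after it were called in either direction by limma. Glrx5, a mitochondrial glutaredoxin of iron-sulphur cluster synthesis and the nearest protein-coding gene on that side at 103 kb, had 13.5 ± 3.54 FPKM in knockout and 48.8 ± 11.7 FPKM in wild type (SD, n = 4 each, limma adjusted p = 0.000221). Dicer1, the RNase that makes small RNAs in oocytes, 394 kb away, had 4.79 ± 0.578 FPKM in knockout and 34.5 ± 4.47 FPKM in wild type (SD, n = 4 each, limma adjusted p = 6.69e-06). Clmn had 0.190 ± 0.104 FPKM in knockout and 5.98 ± 0.795 FPKM in wild type (SD, n = 4 each), and Syne3, a nuclear envelope protein, 0.121 ± 0.222 and 2.09 ± 0.915 FPKM. The call of Syne3 ended after GC correction (limma adjusted p = 0.0538). Clmn and Syne3 passed the filter through their wild-type libraries alone and could hardly have been tested without differing. Their calls thus add nothing to the values, and the count on this side rests partly on them.

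On the other side Tunar, the nearest neighbour at 111 kb, was at most 0.0682 FPKM in knockout and 0.218 FPKM in wild type and was not tested. Atg2b, Gskip, Papola and Vrk1 had limma adjusted p values of 0.243, 0.376, 0.106 and 0.202, and Papola, the poly(A) polymerase, had 44.0 to 59.4 FPKM in knockout and 37.6 to 44.0 FPKM in wild type. None of the 4 had an unadjusted limma p under 0.05, and none was called by limma-voom on recovered reads, where the unadjusted p of Papola was 0.0451. The exact two-sided permutation p of Papola was 0.0286, since its genotypes did not overlap. Papola passed upward after median-of-ratios scaling and Vrk1 upward without the 3 libraries richest in stromal markers. Whether the 2 sides differ was not tested, and with 25.6% of all genes called lower the neighbours are a description of this region.

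**Figure D3:**
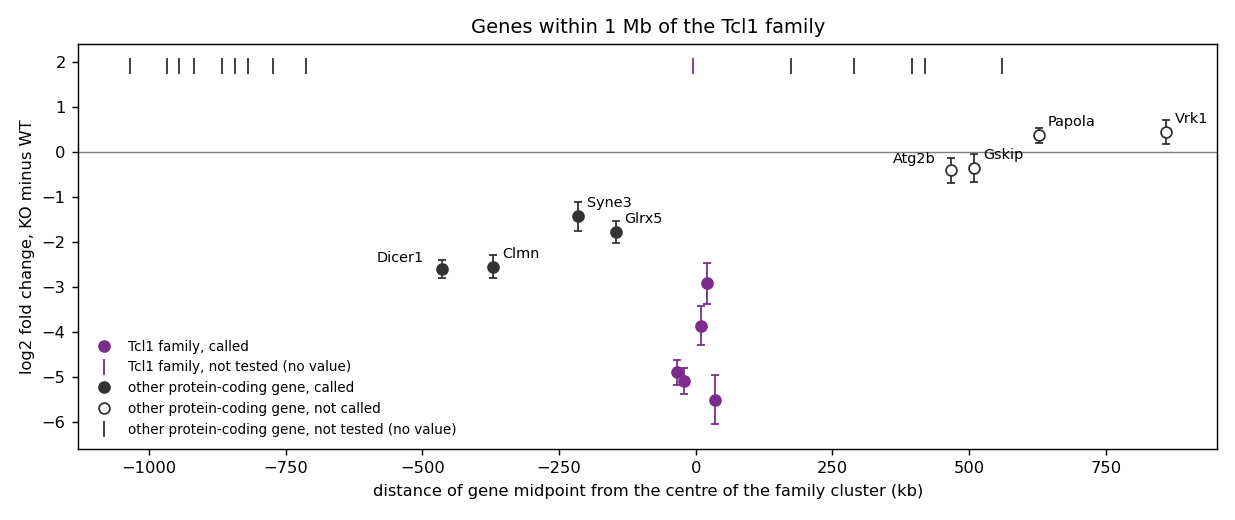
Log2 fold change (knockout minus wild type, log2(FPKM + 1) scale, bars for the standard error) of protein-coding genes within 1 Mb of the family, by distance of the gene's midpoint from the cluster centre in kb. Filled points were called and open points not, and ticks at the top mark genes that were not tested. The 4 tested genes before the cluster lie between -2.61 and -1.43, and the 4 after it between -0.41 and 0.45.

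Akt1 and Akt2, kinases that TCL1 binds, were lower in knockout as well, by far less than Tcl1. Akt1 had 1.11, 4.40, 8.11 and 2.14 FPKM in knockout replicates 1 to 4, against 7.56, 14.8, 19.9 and 17.7 FPKM in wild-type replicates 1 to 4. Knockout replicate 3 thus overlapped with wild-type replicate 1. The call (log2 fold change -1.84, limma adjusted p = 0.00753) ended after GC correction (adjusted p = 0.0613).

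Akt2 had 11.6, 10.6, 12.5 and 8.75 FPKM in knockout replicates 1 to 4, against 21.5, 32.9, 31.3 and 37.4 FPKM in wild-type replicates 1 to 4. Its libraries did not overlap (log2 fold change -1.41, limma adjusted p = 0.000644). Akt1 and Akt2 thus remained measurable in every knockout library.

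Of 9 tested genes for AKT and the kinases that phosphorylate it, 5 fell and 4 did not pass, or 55.6% called against 43.4% of all genes. Their median log2 fold change was -0.90, and that of all genes tested -0.12. That median of all genes depends on scaling and was -0.00 with median-of-ratios scaling, 0.04 with quantile normalization and 0.02 after GC correction. Prr5, a subunit of the mTORC2 complex that phosphorylates AKT, fell to 3.96 ± 2.39 FPKM in knockout, against 26.5 ± 3.07 FPKM in wild type (SD, n = 4 each, limma adjusted p = 0.000194). Pdpk1, the kinase of the AKT activation loop, had 14.3 ± 0.924 FPKM in knockout and 17.4 ± 2.63 FPKM in wild type (SD, n = 4 each), and Mapkap1, another mTORC2 subunit, 15.7 ± 2.75 and 15.4 ± 2.3 FPKM. Neither passed. After GC correction 3 of the list were lower.

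Among PI3-kinase and lipid phosphatase genes 4 of 10 tested fell and 0 rose (median log2 fold change -0.45), with 2 lower after GC correction. The share called, 40%, was near the 43.4% of all genes tested, so the count says nothing particular about this list. Pik3cd, a catalytic subunit of PI3-kinase, fell to 0.496 ± 0.369 FPKM in knockout, against 20.9 ± 11.2 FPKM in wild type (SD, n = 4 each, limma adjusted p = 2.98e-05). It passed the filter through its wild-type libraries alone. Pik3r2, a regulatory subunit, and Inpp5d and Inppl1, the SHIP lipid phosphatases, fell with log2 fold changes of -1.52, -1.67 and -0.88. The call of Pik3r2 ended after GC correction (limma adjusted p = 0.0763) and that of Inppl1 under 14 of the alternatives, among them 6 that leave out a single library. Pik3r3, another regulatory subunit, had 16.8 ± 5.90 FPKM in knockout and 13.4 ± 3.70 FPKM in wild type (SD, n = 4 each) and did not pass.

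A list of AKT inhibitors and phosphatases had 9 tested genes, Keap1 among them. Of these 1 was higher and 3 lower (median log2 fold change -0.54). With 44.4% called, against 43.4% of all genes tested, this count is no result about the list. Them4, which encodes a protein that binds AKT and limits its phosphorylation, rose to 15.5 ± 6.40 FPKM in knockout, against 4.27 ± 1.72 FPKM in wild type (SD, n = 4 each, limma adjusted p = 0.00264). Phlpp1, a phosphatase of AKT, fell to 1.96 ± 0.991 FPKM in knockout, against 10.4 ± 4.10 FPKM in wild type (SD, n = 4 each, limma adjusted p = 0.00174). Ppp2r1a and Trib3 lost their calls in 11 and 14 of the alternatives, and the number lower was 1 without knockout replicate 1 or 4 or wild-type replicate 1 or 2, after GC correction, after median-of-ratios scaling and without a filter. With array weights it was 4. The phosphatase subunits Ppp2ca and Ppp2cb had 24.5 ± 3.09 and 13.4 ± 4.09 FPKM in knockout and 17.2 ± 0.993 and 17.4 ± 1.95 FPKM in wild type (SD, n = 4 each) and did not pass, though Ppp2ca passed upward under 7 alternatives.

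Substrates of AKT also went both ways, with 2 of 13 tested higher and 6 lower (median log2 fold change -0.65), and 4 higher and 3 lower after GC correction. In the main fit 61.5% were called, against 43.4% of all genes tested. Foxo3 fell to 9.25 ± 5.19 FPKM in knockout, against 53.8 ± 8.45 FPKM in wild type, and its relative Foxo1 to 4.15 ± 1.16 FPKM, against 14.5 ± 5.37 FPKM (SD, n = 4 each, limma adjusted p = 0.000481 and 0.00277). Wnk1, a kinase of ion transport, fell with a log2 fold change of -1.21. Mdm2, the ubiquitin ligase of p53, rose to 43.1 ± 15 FPKM in knockout, against 14.2 ± 1.80 FPKM in wild type (SD, n = 4 each, limma adjusted p = 0.00101). Gsk3b had 29.6 ± 6.59 FPKM in knockout and 19.8 ± 3.61 FPKM in wild type (SD, n = 4 each) and did not pass. Cdkn1b, a cell cycle inhibitor, stood at 56.1 FPKM in knockout replicate 3 and at 1.24 to 5.83 FPKM in the other knockout libraries, against 7.56 to 12.4 FPKM in wild type. It was not called, and without knockout replicate 3 its log2 fold change was -1.65 (limma adjusted p = 0.00656). That library was also highest in granulosa and immune cell markers, with summed levels of 373 and 449 FPKM, and their part in this value was not tested.

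Among 6 other proteins that TCL1 is reported to bind in human or lymphoid cells, the genes of 3 fell and 3 did not pass (median log2 fold change -0.97). That is 50% called, against 43.4% of all genes tested. Dnmt3b and Dnmt3a, the DNA methyltransferases that set new methylation marks, had 0.824 ± 0.539 and 4.01 ± 2.17 FPKM in knockout and 14.5 ± 3.12 and 11.5 ± 3.25 FPKM in wild type (SD, n = 4 each, limma adjusted p = 3.71e-05 and 0.00581). Ep300, an acetyltransferase, fell by 1.03 on the log2 scale, and this call ended after GC correction (limma adjusted p = 0.0659) and without wild-type replicate 3 (0.0508) or 4 (0.0550). Nfkbia, the inhibitor of NF-kappa-B, had 62.2 ± 37.8 FPKM in knockout and 53.4 ± 7.44 FPKM in wild type (SD, n = 4 each). Pnpt1, the mitochondrial polynucleotide phosphorylase, had 20.1 ± 7.77 and 12.2 ± 2.63 FPKM, and neither of these 2 was called.

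Mtcp1 on the X chromosome, the other gene of the TCL1 family of AKT-binding proteins, was low in both genotypes. It had 2.29, 3.76, 2.23 and 2.62 FPKM in knockout replicates 1 to 4, against 1.66, 1.39, 2.25 and 0.993 FPKM in wild-type replicates 1 to 4. The ranges overlapped, and the gene was not called (log2 fold change 0.54, limma adjusted p = 0.147), though it passed upward after quantile normalization (adjusted p = 0.0379). After GC correction its direction turned (log2 fold change -0.24, limma adjusted p = 0.528), so no direction is given. Mtcp1 shares its locus with another annotated gene, so its reads are uncertain.

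Tcl1 was studied in embryonic stem cells, and of a list of 9 self-renewal regulators 5 were tested here, 1 lower and 1 higher (median log2 fold change 0.90). The tested genes were Dppa4, Pou5f1, Klf2, Klf4 and Klf5. The median is the value of Klf2, and none of the Klf genes was called. The share called, 40%, was near the 43.4% of all genes tested. The number higher was 2 after median-of-ratios scaling, quantile normalization or GC correction, without the eBayes trend and without knockout replicate 1 or wild-type replicate 2. Pou5f1, the gene of OCT4, fell to 0.443 ± 0.395 FPKM in knockout, against 10.3 ± 2.75 FPKM in wild type (SD, n = 4 each, limma adjusted p = 5e-05). Dppa4, a chromatin protein of pluripotent cells, rose to 28.8 ± 6.05 FPKM in knockout, against 11 ± 5.04 FPKM in wild type (SD, n = 4 each, limma adjusted p = 0.00480). Klf2 and Klf4, both zinc-finger factors, had 4.22 ± 4.32 and 3.93 ± 4.87 FPKM in knockout and 1.55 ± 2.32 and 1.36 ± 0.928 FPKM in wild type (SD, n = 4 each) and were not called. Sox2 had no read in any library and Nanog at most 0.0307 FPKM in knockout and 0.0449 FPKM in wild type. 

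Oocyte transcription factors fell in 8 of 10 cases, with a median log2 fold change of -2.47. The share called was 80%, against 43.4% of all genes tested. Tbpl2, the oocyte relative of the TATA-binding protein, had 0 reads in knockout, against 51.9 ± 23.3 FPKM in wild type (SD, n = 4). Tbpl2 and Pou5f1, which is on this list too, passed the filter through their wild-type libraries alone. Their calls were thus nearly fixed in advance. Figla fell to 178 ± 85.1 FPKM in knockout, against 764 ± 55.9 FPKM in wild type (SD, n = 4 each, limma adjusted p = 0.000240). Sohlh2 and Taf4b had 68.7 ± 27.1 and 25.9 ± 8.82 FPKM in knockout and 43.3 ± 17.6 and 18.5 ± 5.45 FPKM in wild type (SD, n = 4 each) and were not called. Sohlh2 passed upward without knockout replicate 3 (limma adjusted p = 0.0208).

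**Figure D4:**
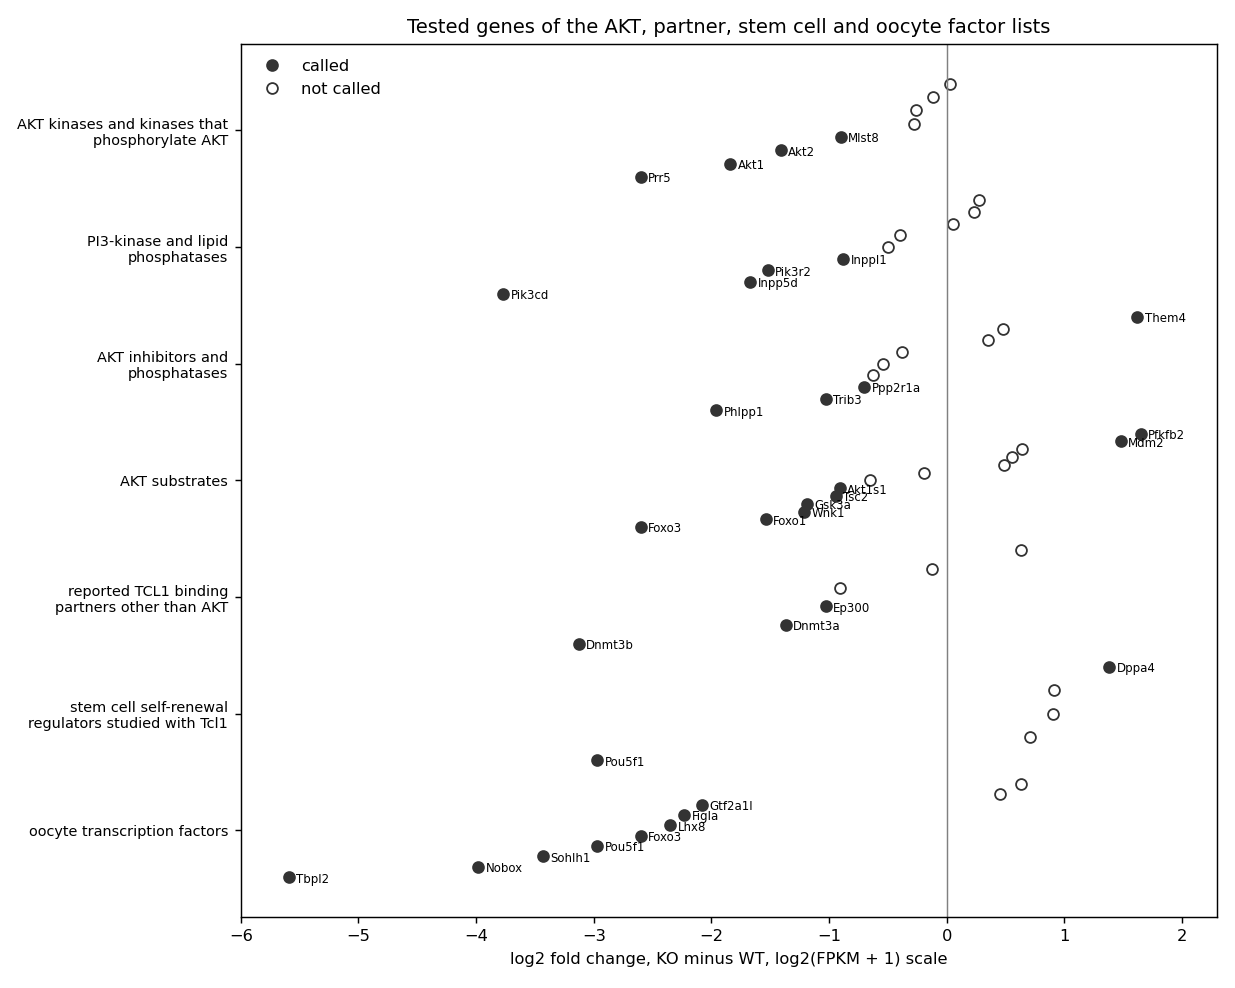
Log2 fold changes (knockout minus wild type, log2(FPKM + 1) scale) of tested genes, those not reported left out, in 7 lists around TCL1, AKT and oocyte factors, a point for each gene, filled where limma called it. Pik3cd at -3.77 lies lowest among the AKT pathway lists, and Them4, Mdm2 and Pfkfb2 are their called genes above 0.

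The Tcl1b genes were compared with other multicopy gene clusters of the oocyte. All 4 Oas1 genes listed and all 10 Fbxw genes were called lower, 2 and 7 of them with 0 reads in every knockout library, against 5 of the 5 Tcl1b genes. Among all genes tested 25.6% were called lower, and 0.774% had 0 reads in every knockout library. Oas1d had 0 reads in knockout and 134 ± 52.3 FPKM in wild type, and Oas1e 0, 0, 1.17 and 0 FPKM in knockout replicates 1 to 4 and 102 ± 46.1 FPKM in wild type (SD, n = 4 each). Fbxw15 had 0 reads in knockout and 36.2 ± 16.3 FPKM in wild type (SD, n = 4). Like the Tcl1b genes, these copies can share reads, and they passed the filter through their wild-type libraries. All 3 Oosp genes listed and 3 of 7 Nlrp genes, Nlrp9a, Nlrp9b and Nlrp9c, also had 0 reads in every knockout library. Oosp3 and these Nlrp genes had means of at most 0.769 FPKM in wild type. Only 1 Oosp gene, Oosp2, and 3 Nlrp genes were tested, and all were called lower. Oosp2 and Nlrp14 passed the filter through their wild-type libraries alone, so their calls add nothing to the values. Among 9 maternal genes outside such clusters, all were lower, with Padi6, Zp3 and Zp1 at 0.0378 ± 0.0588, 0.151 ± 0.209 and 0.108 ± 0.216 FPKM in knockout and 1284 ± 515, 724 ± 323 and 226 ± 58.2 FPKM in wild type (SD, n = 4 each). Padi6, Zp1, Zp2, Zp3, Gdf9 and Khdc3 passed the filter through wild type alone, so their calls add nothing to the values. Ooep and Tle6 kept more, with 10.8 ± 5.16 and 14.9 ± 7.15 FPKM in knockout. In wild type they had 287 ± 129 and 272 ± 25.3 FPKM (SD, n = 4 each). Loss of nearly all reads was thus not particular to the Tcl1b genes.

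Promoters of other genes were read for the same 6 letters. Windows were matched for 81.1% of the genes tested. CACCTG on either strand was in 22.7% of 2335 genes called lower in knockout, 15.4% of 1614 called higher and 16.1% of 5160 not called, the family left out. It occurred at least 2 times in 3.81%, 1.86% and 2.05% of these groups. These shares are given without a test and say nothing of which factor binds.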

How the data were processed

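Per the submitters' processing notes, the authors used cutadapt, HISAT2 and HTSeq with the genome build GRCm38 (mm10). No source used here gives versions, annotation, strand setting or read length. The table as deposited by the authors holds 1 FPKM value for each gene in each library. After multiplication by GENCODE M21 exon length, 97.4% to 97.6% of a library's values lay within 0.02 of a whole number of reads. Recovered reads served for depths, floors and a limma-voom alternative.

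A gene entered the test if 4 libraries or more reached 1 FPKM. The 11235 genes that did were fitted by genotype alone in limma 3.58.1 (R 4.3.3), on log2(FPKM + 1) and with the trend option of eBayes, and called at a Benjamini-Hochberg adjusted p under 0.05 over all of them. Fold changes on that scale understate changes of low genes. Single values were tested with an exact two-sided permutation test. The fit was tested on simulated data. The labels do not say whether replicate numbers pair the libraries across genotypes, and the main fit did not use them as pairs.

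The members and gene lists were chosen with earlier results of these data known. Named genes were, by rule, the members, Rbpms2, Mtcp1, AKT genes, up to 4 called and 2 uncalled genes per list, the nearest and all called neighbours within 1000 kb, and 5 genes most like Tcl1 by each of 2 measures. Other genes of the lists, markers and neighbours were named after their values were seen. Results of some genes of these lists are not reported here. Sequences are from RefSeq (GRCm38.p6 promoters) and GENCODE M21 transcripts, read with Biopython 1.88 in Python 3.11.15. Alternatives were other pseudocounts, filters, scalings, weights and trend settings, GC correction, the replicate number as a block and leaving out libraries. The alternative without the 3 libraries richest in stromal markers was chosen after seeing the data.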

Additional observations from a re-analysis of the deposited data

Results flagged for a closer look

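No member of the family had a library that stood apart from its group. Groups of 4 libraries were examined for the members and the genes named by rule, the nearest and the called chromosome neighbours among them. Other neighbours and genes named later were not examined in this way. In 7 of 118 groups examined, 1 library lay far from the other 3, with a gap to the next value above Dixon's critical value. About 1 group in 20 does so by chance. All 7 were in knockout. In replicate 3, Cdkn1b stood at 56.1 FPKM, Klf4 at 11.2, Tunar at 0.0682, Clmn at 0.345 and Syne3 at 0.454 FPKM, each the highest of its group. In replicate 1, Zp1 was the highest at 0.432 FPKM and Dnmt3b the lowest at 0.0167 FPKM. Replicate 3 also had the highest granulosa and immune marker sums, 373 and 449 FPKM, and their part in these values was not tested.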

How the results depend on the processing

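Across 61 genes (members and named genes) and 22 alternatives, 1222 of 1308 values kept their direction and their side of the threshold, 50 lost a call, 25 gained one and 11 changed sign, none of them called in either fit. Log2 fold changes turned after GC correction, with or without the block, for Mtcp1 (-0.24), Ppp2cb (0.13) and Nfkbia (0.31). That of Nfkbia also turned with median-of-ratios scaling (0.02) and without knockout replicate 4 (0.53), within a range of -0.44 to 0.53 when 1 library was left out. That of Mapkap1 turned without knockout replicate 2 (-0.07), without wild-type replicate 3 (-0.06) and without the 3 libraries richest in stromal markers (-0.12). Tcl1 was called in each alternative, with log2 fold changes of -6.74 to -4.85. All 5 members tested were called in each alternative except the filter at 5 FPKM, which left 3 to test, all called. Fitted fold changes of the Tcl1b genes move with the pseudocount, for Tcl1b1 -8.38 at 0.1 and -2.95 at 5, and -9.71 by limma-voom. By reads not divided by length, Tcl1 made up 87.2% ± 2.33 of the family in wild type (SD, n = 4), against 81.1% by FPKM. Within 250 kb there were 2 called neighbours, against 4 within 1000 kb. The number of genes called between genotypes was 3909 to 4960 when 1 library was left out, against 4871 with all. The lists then had 53 to 61 calls, against 59, and 5 members were called each time. The counts of genes called higher in knockout and genes called lower in knockout were 1991 and 2880, then 2312 and 2506 with median-of-ratios scaling, 2503 and 2511 with quantile normalization, and 2064 and 2129 after GC correction. With the replicate number as a block 5034 genes were called, and the stem cell list had 2 higher, or 4 together with GC correction. Deviations of same-numbered libraries correlated at 0.185, 0.0158, 0.361 and -0.053. Differently numbered libraries were not compared in this way, so these values cannot tell whether the numbers pair the libraries. The causes of these shifts were not tested. Depth limits Tcl1b5, which had 68 reads in wild type.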
